A study of Homo sapiens with 6 samples.

Results

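Axon guidance ligands and receptors are the secreted and membrane proteins by which a growing nerve fibre is attracted or repelled: the semaphorins with their plexin and neuropilin receptors, the ephrins with the Eph receptor kinases, the Slits with the Robo receptors, and the netrins with the UNC5 receptors, neogenin and DCC. The genes were taken by symbol from the deposited count table, with antisense transcripts left out, and 67 of the 26524 genes of the table qualified: 34 ligands, 32 receptors and UNC5CL, which shares its name with UNC5C but is not a known netrin receptor. Family members outside the table were not analysed here.

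The counts came from polyadenylated RNA of SCC25, an established human cell line grown from a tongue squamous carcinoma. A group of 3 libraries came from cells carrying a short hairpin against LIS1, the dynein regulator encoded by PAFAH1B1 (shLIS1), and 3 libraries came from control cells. The labels do not say whether 1 hairpin or several were used, nor whether the control cells, titled NC, carry a hairpin of their own. Nothing says that libraries of a group came from separate cultures, so p-values measure the spread between these libraries, which may be technical. All 6 carry batch 1 and come from 1 epithelial line, with no nerve cells named in the labels. The series title ties LIS1 to perineural invasion, the growth of tumour along nerves, where guidance cues are of interest.

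Guidance cues were named for axons, but epithelia use most of them. Class 3 semaphorins are secreted and act through neuropilins paired with A-type plexins, whereas the other semaphorins sit in the membrane and bind plexins directly. Ephrins are membrane-bound and act at cell contacts, the A class held by a lipid anchor and the B class spanning the membrane, so that Eph receptor and ephrin can both signal. Netrins repel through UNC5 receptors and attract through DCC, while Slits act through Robo receptors, and in squamous epithelium EPHA2 with its ligand EFNA1 is among the best known pairs.

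Total counts lay between 17674881 and 22790599 in the shLIS1 libraries and between 15661916 and 20549728 in the control libraries, and guidance genes took 0.187% to 0.196% of them in shLIS1 and 0.192% to 0.215% in control libraries. Levels are in CPM, the deposited counts scaled to TMM library sizes, and are listed for libraries 1 to 3 in order. Fold changes are shLIS1 over control on the log2 scale, from edgeR's quasi-likelihood test. Adjusted p is the Benjamini-Hochberg value over the 14964 genes tested. PAFAH1B1 (ENSG00000007168, chr17:2593210-2685615, plus strand) had 111, 109 and 113 CPM in the shLIS1 libraries, against 157, 165 and 154 CPM in the control libraries. Its log2 fold change was -0.52 (adjusted p = 6.5e-08, SE 0.05), and every hairpin library was below every control library. All 9 squamous markers were detected, with a summed level of 12117 to 13074 CPM in shLIS1 and 13374 to 13666 CPM in control libraries. Of these markers 4 rose, among them DSG3 (0.49), and 4 fell, among them KRT14 (-0.50), where 23.5% of all genes rose and 24.9% fell. Fold changes across the table followed transcript composition, so a value from a fit that takes out the trend with length and GC content, called the corrected value here, is set beside the fold changes. For PAFAH1B1 it was -0.82 (adjusted p = 2.4e-12). For DSG3 it was 0.22 (adjusted p = 0.0020) and for KRT14 -0.16 (adjusted p = 0.0081). In the corrected fit KRT5 and CDH1 lost their calls, and SFN was called higher.

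Of the 67 guidance genes, 48 had enough counts to be tested, and 25 passed the threshold of an adjusted p below 0.05. Of these, 8 rose, or 16.7% of those tested, against 23.5% of all genes. Another 17 fell, or 35.4%, against 24.9% of all genes. The groups did not overlap for 10 genes that were higher and 18 that were lower in shLIS1, where the shares over all genes were 27.1% and 29.0%, or 56.1% in either direction. In either direction 52.1% of the tested guidance genes were called, near the background of 48.4%, so the number of calls is no property of these genes. The median log2 fold change was -0.12 for the guidance genes and -0.01 for all genes. With the correction, 11 rose and 8 fell, against 17.5% and 24.3% of all genes, or 41.8% in either direction, and the medians were -0.01 for the guidance genes and -0.04 for all genes. In that fit 15 of the 25 calls were kept, 10 lost and 0 reversed. Of the 7249 calls over all genes, 4226 were kept, 2749 lost and 150 reversed, and the rest had no transcript length.

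**Figure D1:**
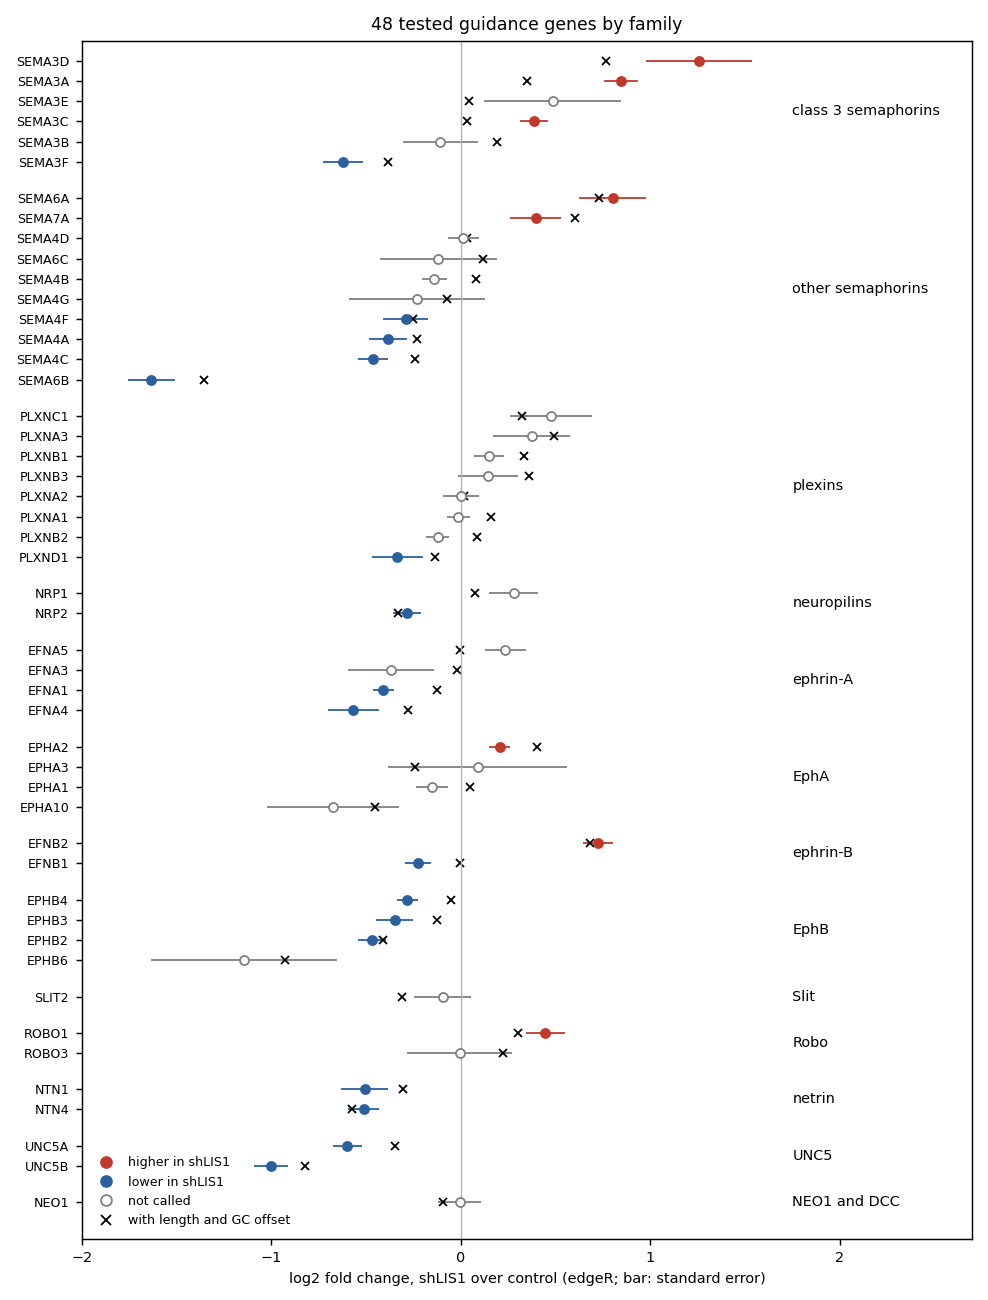
Log2 fold changes (shLIS1 over control, horizontal axis) of the 48 tested guidance genes, ordered within families. Filled points passed the threshold, open points did not, bars are standard errors and crosses are the corrected values; SEMA6B and UNC5B lie farthest left among the filled points, and SEMA3D and SEMA3A farthest right.

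Fold changes of guidance genes varied with the composition of their transcripts. The transcripts are rich in G and C, with a median GC content of 58.98% against 48.5% over all tested genes, and 25 of the 48 fall into the quintile of all genes with the highest GC content. In that quintile the median log2 fold change was -0.28 for the guidance genes and -0.28 for all genes. In the quintiles below it the medians stood further apart. From the lowest GC content up, the guidance genes had medians of 0.48 (5 genes), 0.24 (3 genes), 0.45 (7 genes) and -0.26 (8 genes), against 0.28, 0.14, -0.01 and -0.15 for all genes. Among the 13 guidance genes below 50% GC, 5 rose and 1 fell, and among the 26 at 58% GC or more, 2 rose and 12 fell. The shares over all genes were 37.7% higher and 12.1% lower below 50% GC, and 3.54% higher and 51.1% lower at 58% or more. The part of composition in a single gene's fold change was not tested beyond the corrected values.

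**Figure D2:**
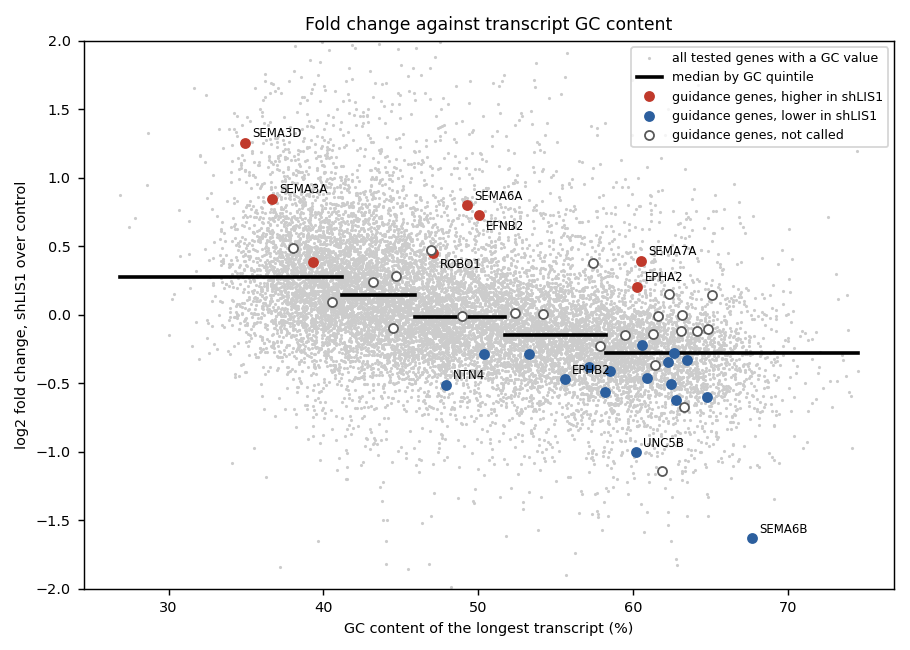
Log2 fold change (shLIS1 over control) against the GC content of the longest transcript in percent, for all tested genes with a GC value (grey) and for guidance genes (circles). Black lines are medians of all genes in quintiles by GC content, from 0.28 to -0.28; SEMA6A, EFNB2 and SEMA7A lie above the line at their GC content and UNC5B and SEMA6B below it, and 60 genes lie outside the vertical range.

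The starts of the genes differed in composition too. RefSeq promoter windows (build GRCh38.p14, 250 bases before to 50 after the annotated start) were matched for 58 of the 67 genes, with a median GC content of 66.2% against 58.7% over all 35116 windows. The median was 60.7% for the 6 risen genes with a window and 70.8% for the 14 that fell. Shown are the windows of the 2 rises and 2 falls with the smallest p among genes that have one, to set the AT-rich start of SEMA3C beside the GC-rich starts of the others. Capitals mark matches on either strand to the GC box (GGGCGG, whose matches may overlap each other) or the TATA box (TATAAA).
EFNB2 promoter, chr13:106535613-106535912, minus strand: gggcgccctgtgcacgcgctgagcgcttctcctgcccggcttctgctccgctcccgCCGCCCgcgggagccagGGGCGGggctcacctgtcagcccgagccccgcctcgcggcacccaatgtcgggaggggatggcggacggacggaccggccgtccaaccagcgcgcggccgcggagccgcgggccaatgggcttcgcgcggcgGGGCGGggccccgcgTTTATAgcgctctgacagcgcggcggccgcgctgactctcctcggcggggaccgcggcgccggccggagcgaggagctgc
SEMA3C promoter, chr7:80922340-80922639, minus strand: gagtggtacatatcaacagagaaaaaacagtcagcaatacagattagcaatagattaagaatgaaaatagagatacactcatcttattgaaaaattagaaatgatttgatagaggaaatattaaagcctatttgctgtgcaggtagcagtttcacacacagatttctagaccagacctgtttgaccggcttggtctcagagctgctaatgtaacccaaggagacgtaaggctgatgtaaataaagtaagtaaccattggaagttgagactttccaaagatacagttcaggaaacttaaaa
UNC5A promoter, chr5:176810309-176810608, plus strand: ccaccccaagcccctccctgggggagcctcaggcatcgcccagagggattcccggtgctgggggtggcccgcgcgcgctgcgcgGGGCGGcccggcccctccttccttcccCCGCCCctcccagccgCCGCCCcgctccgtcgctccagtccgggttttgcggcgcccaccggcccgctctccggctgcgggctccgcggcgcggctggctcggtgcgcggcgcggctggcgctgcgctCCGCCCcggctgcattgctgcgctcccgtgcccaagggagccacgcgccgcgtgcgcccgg
EFNA1 promoter, chr1:155127626-155127925, plus strand: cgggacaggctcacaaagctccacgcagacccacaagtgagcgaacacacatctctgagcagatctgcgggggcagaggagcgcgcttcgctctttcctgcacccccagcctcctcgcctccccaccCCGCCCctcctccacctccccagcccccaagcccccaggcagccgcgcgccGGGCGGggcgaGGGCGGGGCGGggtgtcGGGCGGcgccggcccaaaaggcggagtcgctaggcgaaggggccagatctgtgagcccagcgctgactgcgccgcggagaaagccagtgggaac
The GC box was found in 3 of 6 risen and 12 of 14 fallen genes, in 45 of all 58 guidance windows and in 44.95% of all windows. The TATA box was in 1 guidance window, that of EFNB2, and in 11.5% of all windows. The AP-1 site (TGANTCA), the cyclic AMP response element (TGACGTCA) and the E-box (CACGTG) were searched as well and none of them is in these 4 windows. They occur in 1, 2 and 2 of the 58 guidance windows and in 7.71%, 1.85% and 7.26% of all windows. A match is a string of letters and not a bound site.

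A few genes carried most of the guidance transcripts. By level per length, that is CPM per kb of the longest transcript, SEMA4B, EFNA1, EPHA2 and PLXNB2 together made up 56.4% of the guidance total in shLIS1 and 55.1% in control cells. EPHA2 stood at 63.5 CPM per kb in shLIS1 and 55.1 CPM per kb in control cells. SEMA4B, a membrane semaphorin, had 62.1 CPM per kb in shLIS1 and 68.4 CPM per kb in control cells. EFNA1 had 55.1 CPM per kb in shLIS1 and 73.1 CPM per kb in control cells. PLXNB2, a receptor of class 4 semaphorins, had 52.0 CPM per kb in shLIS1 and 56.6 CPM per kb in control cells. At the low end, 19 of the 67 genes did not reach the filter, with at most 16 counts in any library. They were the ligands SLIT1, SLIT3, SEMA3G, SEMA5A, SEMA5B, EFNA2, EFNB3, NTN3 and NTN5, the receptors EPHA4, EPHA6, EPHA7, EPHB1, PLXNA4, ROBO2, ROBO4, UNC5C and DCC, and UNC5CL. SLIT3 and EPHA7 had 0 counts in every shLIS1 library, against 1 and 2 counts summed over the control libraries.

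**Figure D3:**
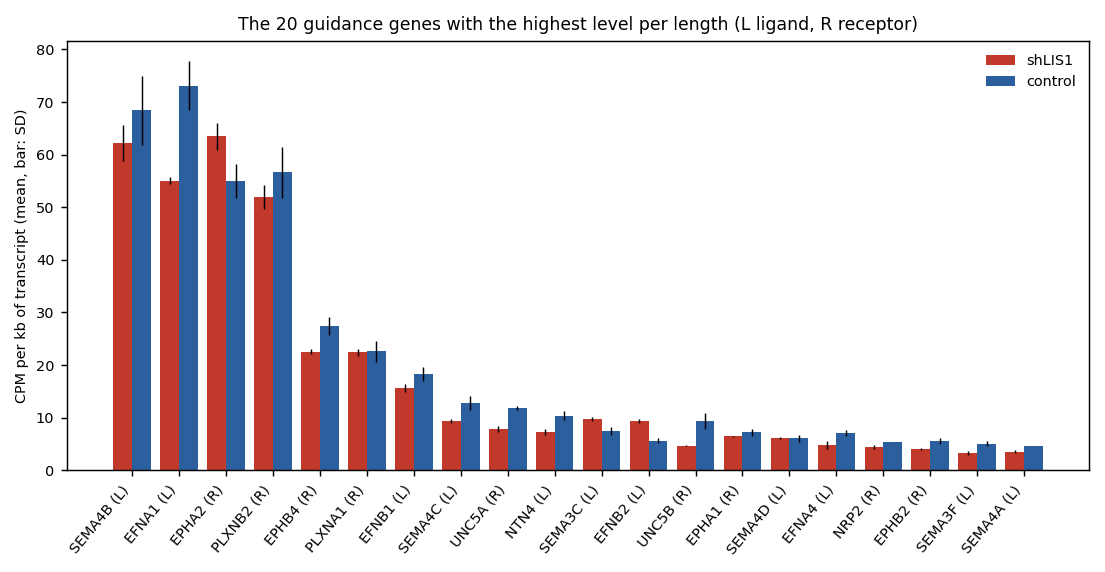
Level per length (CPM per kb of the longest transcript, mean with SD of 3 libraries per group) of the 20 most abundant guidance genes, shLIS1 left of control. SEMA4B, EFNA1, EPHA2 and PLXNB2 each exceed 50 CPM per kb in both groups; EFNA1 was lower and EPHA2 higher in shLIS1.

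Among the secreted class 3 semaphorins, 3 of 6 tested genes rose and 1 fell, against 23.5% and 24.9% of all genes. Below 50% GC, where the 3 risen genes lie, 37.7% of all genes rose. The 3 also lie in the quintile with the lowest GC content, where the median log2 fold change of all genes was 0.28. SEMA3A (ENSG00000075213, chr7:83955777-84492724, minus strand), which repels axons through NRP1 and A-type plexins, had 42.98, 40.7 and 39.1 CPM in the shLIS1 libraries, against 19.1, 25.2 and 23.6 CPM in the control libraries. No shLIS1 library overlapped a control library, and the log2 fold change was 0.85 (adjusted p = 1.7e-07, SE 0.09). SEMA3C (ENSG00000075223, chr7:80742538-80922359, minus strand), the most abundant of the class per length and a ligand of both neuropilins, had 52.1, 51.1 and 48.3 CPM in the shLIS1 libraries, against 36.3, 42.8 and 36.6 CPM in the control libraries. Again the groups did not overlap, and the log2 fold change was 0.39 (adjusted p = 2.5e-04, SE 0.08). SEMA3D (ENSG00000153993, chr7:84995553-85187056, minus strand) was scarce, at 1.95, 2.21 and 2.04 CPM in the shLIS1 libraries, against 0.962, 0.895 and 0.736 CPM in the control libraries. It more than doubled, by 1.26 (adjusted p = 8.6e-04, SE 0.28) on the log2 scale. SEMA3F (ENSG00000001617, chr3:50155045-50189075, plus strand), which acts through NRP2 and is known as a tumour suppressor, had 13.3, 10.7 and 13.4 CPM in the shLIS1 libraries, against 21.3, 17.8 and 18.9 CPM in the control libraries. It fell with -0.62 (adjusted p = 4.9e-05, SE 0.10), and its groups did not overlap either. The corrected values were 0.35 (adjusted p = 6.8e-04) for SEMA3A, 0.77 (adjusted p = 0.032) for SEMA3D, -0.39 (adjusted p = 0.0019) for SEMA3F and 0.04 (adjusted p = 0.70) for SEMA3C, whose call was lost.

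The makeup of the class differed between the groups. As a share of the class 3 total per length, SEMA3A made up 25.3% ± 0.538 in shLIS1 and 16.4% ± 2.21 in control cells, and SEMA3F made up 16.7% ± 1.95 in shLIS1 and 30.3% ± 3.07 in control cells (SD, n = 3 each). The summed level of the class was 107 to 114 CPM in the shLIS1 libraries and 83.2 to 90.3 CPM in the control libraries, without overlap. The 3 risen genes and SEMA3E lie on the minus strand of chromosome 7 between 80742538 and 85187056, in the order SEMA3C, SEMA3E, SEMA3A and SEMA3D. Their transcripts have 34.9% to 39.4% GC, and other genes in this span were not examined. SEMA3E, a ligand that binds PLXND1 without a neuropilin, had 0.854 ± 0.0591 CPM in shLIS1 and 0.609 ± 0.0537 CPM in control cells and was not called (0.48, adjusted p = 0.28, corrected value 0.04), although its groups did not overlap. SEMA3F and SEMA3B lie together on chromosome 3, with 62.7% and 64.8% GC, and SEMA3B was not called (-0.11, adjusted p = 0.68, corrected value 0.19).

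Of the 2 neuropilins, which bind class 3 semaphorins, 1 fell, where 24.9% of all genes fell. NRP2, the more abundant per length, had 30.7, 30.4 and 27.1 CPM in the shLIS1 libraries, against 35.7, 35.4 and 36.3 CPM in the control libraries. Its groups did not overlap, and it fell with -0.28 (adjusted p = 0.0036, SE 0.07) and a corrected value of -0.33 (adjusted p = 7.3e-04). NRP1 had 10.2, 9.503 and 8.495 CPM in the shLIS1 libraries, against 6.48, 7.75 and 8.79 CPM in the control libraries. The groups overlapped and the log2 fold change was 0.28 (adjusted p = 0.082, SE 0.13), which passed without control library 3 (0.39, adjusted p = 0.037). Its corrected value was 0.08 (adjusted p = 0.67). Within each library, the ratio of SEMA3A to NRP1 per length was 3.02, 3.06 and 3.29 in the shLIS1 libraries and 2.11, 2.33 and 1.92 in the control libraries. For SEMA3C over NRP2 the ratios were 2.18, 2.16 and 2.29 in the shLIS1 libraries and 1.31, 1.56 and 1.30 in the control libraries. Both ratios were higher in every shLIS1 library, and since the pairs were taken with the values known they are a description without a test. The ratios are uncorrected, and the genes of a pair differ in GC content. It is 36.7% for SEMA3A and 44.7% for NRP1, and 39.4% for SEMA3C and 50.4% for NRP2. Ratios of the pairs given further on are likewise uncorrected and without a test.

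Membrane semaphorins moved in both directions, with 2 of 10 tested genes risen and 4 fallen, against 23.5% and 24.9% of all genes. SEMA6B (ENSG00000167680, chr19:4542593-4581776, minus strand), a transmembrane ligand of A-type plexins, had 5.94, 8.37 and 6.805 CPM in the shLIS1 libraries, against 22.5, 18.8 and 23.8 CPM in the control libraries. Every shLIS1 library was below every control library. This left 32.5% of the control level, with a log2 fold change of -1.63 (adjusted p = 3.0e-09, SE 0.12) and a corrected value of -1.36 (adjusted p = 2.7e-09). The fold change ranged from -1.76 to -1.52 when single libraries were left out. Its close relative SEMA6A (ENSG00000092421, chr5:116443555-116574823, minus strand) went the other way, with 4.41, 4.64 and 4.29 CPM in the shLIS1 libraries, against 3.01, 2.24 and 2.45 CPM in the control libraries. It rose with 0.80 (adjusted p = 8.6e-04, SE 0.18) and a corrected value of 0.73 (adjusted p = 0.0015). Per length, SEMA6B stood at 1.77 CPM per kb in shLIS1 and 5.44 CPM per kb in control cells, and SEMA6A at 0.646 CPM per kb in shLIS1 and 0.373 CPM per kb in control cells, so SEMA6B was above SEMA6A in both groups. SEMA6C (-0.12, adjusted p = 0.78, corrected value 0.12) and SEMA4G (-0.23, adjusted p = 0.63, corrected value -0.07) did not pass, and SEMA4G, with 9 to 24 counts in a library, shares its span with MRPL43 on the other strand.

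SEMA4C (ENSG00000168758, chr2:96859718-96870757, minus strand), a ligand of PLXNB2, had 33.2, 34.2 and 31.6 CPM in the shLIS1 libraries, against 49.3, 40.5 and 46.5 CPM in the control libraries. It fell with -0.46 (adjusted p = 6.5e-05, SE 0.08) and a corrected value of -0.24 (adjusted p = 0.0057). SEMA4B (ENSG00000185033, chr15:90160604-90229679, plus strand), the most abundant ligand per length after EFNA1 in control cells, had 247, 222 and 241 CPM in the shLIS1 libraries, against 285, 235 and 261 CPM in the control libraries. Those groups overlapped and the log2 fold change of -0.14 (adjusted p = 0.090, SE 0.07) did not pass, though it passed without control library 2 (-0.20, adjusted p = 0.015) and the corrected value was 0.08 (adjusted p = 0.20). SEMA4A fell with -0.38 (adjusted p = 0.0029, SE 0.10) and SEMA4F with -0.29 (adjusted p = 0.047, SE 0.12), and neither call was kept in the corrected fit, with -0.23 (adjusted p = 0.060) for SEMA4A and -0.25 (adjusted p = 0.065) for SEMA4F. SEMA4F passed without control library 2 but in none of the other 5 fits that left out 1 library, where the adjusted p was 0.053 to 0.22. Its call was also lost with RLE scaling (adjusted p = 0.052), DESeq2 (0.10), limma-voom (0.059) and no filter on low counts (0.076). SEMA4D, the ligand of PLXNB1, had 34.7 ± 1.097 CPM in shLIS1 and 34.5 ± 3.67 CPM in control cells (SD, n = 3 each) and a log2 fold change of 0.01 (adjusted p = 0.90, SE 0.08). SEMA7A, a lipid-anchored semaphorin that binds PLXNC1, rose with 0.40 (adjusted p = 0.019, SE 0.13), and its corrected value was 0.61 (adjusted p = 9.0e-04). The call of SEMA7A was lost without shLIS1 library 1 (0.35, adjusted p = 0.077) and without control library 1 (0.28, adjusted p = 0.092).

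**Figure D4:**
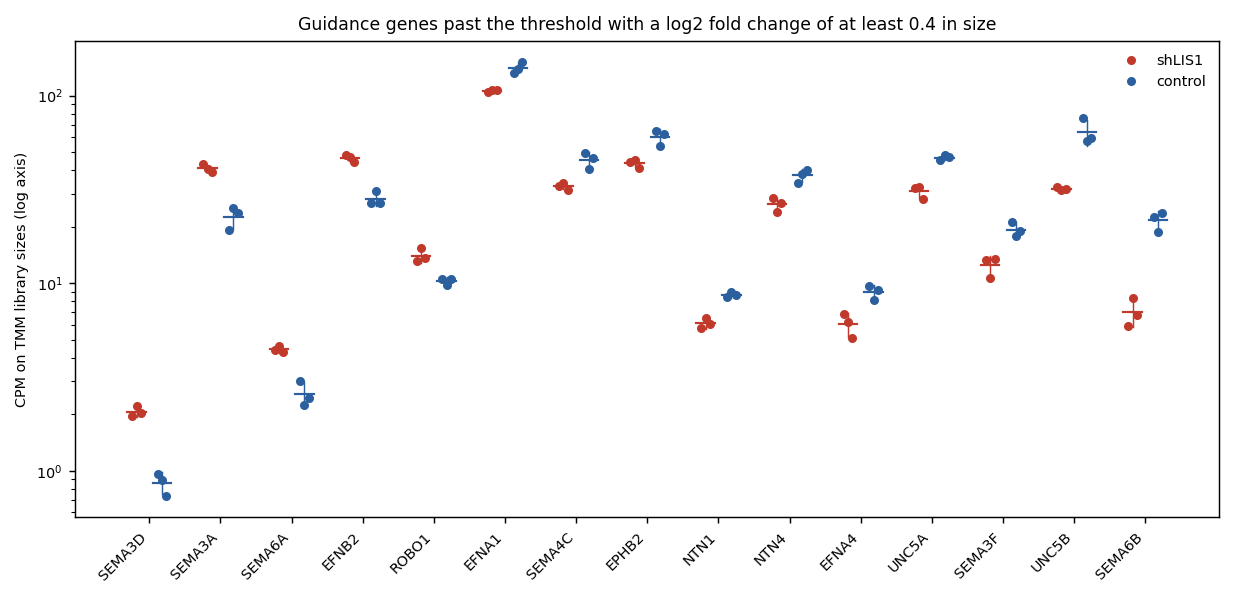
Levels in CPM (log axis) of the 15 guidance genes that passed the threshold with a log2 fold change of at least 0.4 in size and a mean of at least 1 CPM in a group. Points are libraries, horizontal lines group means and vertical lines SD, with shLIS1 left of control; in none of the 15 genes do the groups overlap.

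The plexins, the receptors of all these semaphorins, showed 1 call among 8 tested genes, where 48.4% of all genes were called. PLXNB2 (ENSG00000196576, chr22:50274979-50307646, minus strand) had 347, 319 and 329 CPM in the shLIS1 libraries, against 393, 329.9 and 361 CPM in the control libraries. Its log2 fold change was -0.12 (adjusted p = 0.11, SE 0.06) with a corrected value of 0.09 (adjusted p = 0.15). The fold change passed without control library 2 (-0.17, adjusted p = 0.024). PLXNA1, a coreceptor of neuropilins, had 203 ± 6.13 CPM in shLIS1 and 205 ± 18.1 CPM in control cells (SD, n = 3 each) and a log2 fold change of -0.01 (adjusted p = 0.88, SE 0.06). PLXNA2 had 19.97 ± 1.92 CPM in shLIS1 and 20.01 ± 1.91 CPM in control cells (SD, n = 3 each) and a log2 fold change of 0.0027 (adjusted p = 0.98, SE 0.09). PLXND1, the receptor of SEMA3E, fell with -0.33 (adjusted p = 0.043, SE 0.13), although its groups overlapped. That call was lost in the corrected fit (-0.14, adjusted p = 0.39) and without control library 1 or 3 or shLIS1 library 1 or 2, with adjusted p from 0.071 to 0.21. The PLXND1 call was also lost with DESeq2 (adjusted p = 0.088) and limma-voom (adjusted p = 0.055). With the correction 4 plexins rose that had not passed without it: PLXNA1 (0.16, adjusted p = 0.0097), PLXNA3 (0.49, adjusted p = 8.1e-04), PLXNB1 (0.33, adjusted p = 5.5e-04) and PLXNB3 (0.36, adjusted p = 0.043). Their uncorrected fold changes were -0.01 for PLXNA1, 0.37 for PLXNA3, 0.15 for PLXNB1 and 0.15 for PLXNB3. Without control library 1, PLXNA3 (0.61, adjusted p = 9.2e-06) and PLXNB1 (0.20, adjusted p = 0.041) passed uncorrected as well. PLXNA3 also passed uncorrected with limma-voom (0.42, adjusted p = 0.024) and without a filter on low counts (0.39, adjusted p = 5.8e-04). PLXNC1 had 3.04 ± 0.342 CPM in shLIS1 and 2.15 ± 0.483 CPM in control cells (SD, n = 3 each) and did not pass (0.48, adjusted p = 0.078), but did so without control library 2 (0.65, adjusted p = 0.034). Its corrected value was 0.32 (adjusted p = 0.25). Its 3' end overlaps 1227 bases of CEP83 on the other strand. CEP83, a centriole gene, averaged 25.3 ± 0.471 CPM in shLIS1 and 10.3 ± 2.08 CPM in control cells and rose with 1.27 (adjusted p = 1.4e-08, SE 0.11). The libraries mark strand, but no source used here says how the counter used it, so the PLXNC1 count is uncertain. The plexin sum was 599 to 642 CPM in the shLIS1 libraries and 587 to 706 CPM in the control libraries, with overlapping groups.

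In the ephrin system 2 of 4 tested A-type ligands fell, and of 4 tested EphA receptors EPHA2 rose. Over all genes, 24.9% fell and 23.5% rose. EFNA1 (ENSG00000169242, chr1:155127876-155134899, plus strand), the lipid-anchored ligand of EPHA2, had 105, 107 and 107 CPM in the shLIS1 libraries, against 133, 139 and 150.4 CPM in the control libraries. It fell with -0.41 (adjusted p = 3.4e-06, SE 0.05) and no overlap between groups. EPHA2 (ENSG00000142627, chr1:16124337-16156069, minus strand), a receptor kinase abundant in squamous carcinoma, had 263, 249 and 243 CPM in the shLIS1 libraries, against 209, 213 and 233 CPM in the control libraries. It rose with 0.21 (adjusted p = 0.0050, SE 0.06), likewise without overlap. The correction raised both, to -0.12 (adjusted p = 0.055) for EFNA1, whose call was lost, and 0.41 (adjusted p = 2.5e-06) for EPHA2. Within each library, the ratio of EFNA1 to EPHA2 per length was 0.819, 0.882 and 0.906 in the shLIS1 libraries and 1.31, 1.35 and 1.33 in the control libraries, and scaling between libraries cannot change it. The ligand thus exceeded the receptor in every control library and was below it in every shLIS1 library, on a per-length scale that rests on the longest annotated transcripts.

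EFNA4 (ENSG00000243364, chr1:155063737-155069553, plus strand) had 6.82, 6.22 and 5.11 CPM in the shLIS1 libraries, against 9.62, 8.101 and 9.18 CPM in the control libraries. It fell with -0.57 (adjusted p = 0.0016, SE 0.13), a call lost in the corrected fit (-0.28, adjusted p = 0.090). EFNA4, EFNA3 and EFNA1 lie in this order on the plus strand of chromosome 1 between 155063737 and 155134899. EFNA3, the gene in the middle, had 2.26 ± 0.4398 CPM in shLIS1 and 2.97 ± 0.70 CPM in control cells (SD, n = 3 each) and was not called (-0.37, adjusted p = 0.19, corrected value -0.02). EFNA5, on chromosome 5, had a log2 fold change of 0.24 (adjusted p = 0.082, SE 0.11) and passed without control library 1 (0.30, adjusted p = 0.032), while its corrected value was -0.0049. The summed ephrin-A level was 125 to 129 CPM in the shLIS1 libraries and 158 to 172 CPM in the control libraries. EPHA1, which overlaps 823 bases of ZYX on the other strand, was not called (-0.15, adjusted p = 0.14, corrected value 0.05) and passed without control library 2 (-0.21, adjusted p = 0.044). EPHA10 (-0.67, corrected value -0.45) and EPHA3 (0.09, corrected value -0.24) stayed below 2 CPM and were not called.

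The 2 tested B-type ligands went opposite ways. EFNB2 (ENSG00000125266, chr13:106489745-106535662, minus strand), the transmembrane ligand of EPHB4, had 48.6, 47.3 and 44.3 CPM in the shLIS1 libraries, against 26.7, 31.2 and 26.8 CPM in the control libraries. All shLIS1 libraries were above all control libraries. It rose with 0.72 (adjusted p = 2.2e-07, SE 0.08), and the corrected value of 0.68 (adjusted p = 1.6e-07) was nearly the same. EFNB1 (ENSG00000090776, chrX:68829021-68842160, plus strand), the more abundant per length, had 54.4, 50.7 and 50.2 CPM in the shLIS1 libraries, against 65.5, 56.7 and 59.7 CPM in the control libraries. The groups lay close without overlapping, and the log2 fold change was -0.23 (adjusted p = 0.010, SE 0.07). That call was lost in the corrected fit (-0.01, adjusted p = 0.95), without shLIS1 library 2 (-0.21, adjusted p = 0.051) and without shLIS1 library 3 (-0.20, adjusted p = 0.056). As a share of the ephrin-B total per length, EFNB2 made up 37.3% ± 0.761 in shLIS1 and 23.5% ± 2.83 in control cells (SD, n = 3 each). A transcript with no symbol, ENSG00000284966, lies within EFNB2 on the other strand and had 39, 15 and 18 counts in shLIS1 and 4, 4 and 0 in control libraries. EFNB2 itself had 836 to 1046 counts in shLIS1 and 416 to 627 counts in control libraries.

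Of 4 tested EphB receptors 3 fell, where 24.9% of all genes fell. At 58% GC or more, where EPHB3, EPHB4 and EPHB6 lie, 51.1% of all genes fell. EPHB4 (ENSG00000196411, chr7:100802565-100827523, minus strand), the partner of EFNB2, had 100.03, 97.5 and 95.7 CPM in the shLIS1 libraries, against 123, 110.2 and 123 CPM in the control libraries. The groups did not overlap, and it fell with -0.28 (adjusted p = 2.9e-04, SE 0.06). EPHB2 (ENSG00000133216, chr1:22710839-22921500, plus strand), which sorts cells at boundaries in epithelia, had 44.2, 45.4 and 41.3 CPM in the shLIS1 libraries, against 65.1, 54.1 and 62.2 CPM in the control libraries. Its log2 fold change was -0.47 (adjusted p = 2.6e-05, SE 0.07). EPHB3, its close relative, had 12.5 ± 0.494 CPM in shLIS1 and 16.01 ± 1.103 CPM in control cells (SD, n = 3 each) and fell with -0.35 (adjusted p = 0.0052, SE 0.10). With the correction EPHB2 kept its call (-0.41, adjusted p = 2.8e-05), while EPHB4 (-0.05, adjusted p = 0.40) and EPHB3 (-0.12, adjusted p = 0.29) lost theirs. EPHB6, a kinase-dead member below 1 CPM, had a log2 fold change of -1.14 (adjusted p = 0.061, SE 0.49) and a corrected value of -0.93 (adjusted p = 0.14). With limma-voom EPHB6 passed (-1.20, adjusted p = 0.041). The EphB sum was 149.7 to 158 CPM in the shLIS1 libraries and 180.2 to 207 CPM in the control libraries. The ratio of EFNB2 to EPHB4 per length was 0.421, 0.421 and 0.401 in the shLIS1 libraries and 0.187, 0.245 and 0.189 in the control libraries, higher in every shLIS1 library. For EFNB1 over EPHB4 it was 0.711, 0.6801 and 0.686 in the shLIS1 libraries and 0.693, 0.672 and 0.635 in the control libraries, with overlapping groups.

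In the netrin system 4 of 5 tested genes fell, both tested ligands and both tested UNC5 receptors, where 24.9% of all genes fell, and the gene not called was NEO1. At 58% GC or more, where NTN1, UNC5A and UNC5B lie, 51.1% of all genes fell. With the correction 3 of the 5 fell, against 24.3% of all genes. UNC5B (ENSG00000107731, chr10:71212570-71302864, plus strand), a repulsive netrin receptor that can also trigger cell death without its ligand, had 32.4, 31.6 and 31.99 CPM in the shLIS1 libraries, against 75.9, 57.5 and 59.4 CPM in the control libraries. The shLIS1 libraries lay within a narrow band and control library 1 stood above the other two. UNC5B fell with -1.003 (adjusted p = 9.1e-08, SE 0.09), or -0.88 at its smallest when single libraries were left out. UNC5A (ENSG00000113763, chr5:176810519-176880898, plus strand), a receptor of the same kind, had 32.1, 32.7 and 28.1 CPM in the shLIS1 libraries, against 45.3, 48.2 and 46.8 CPM in the control libraries. The groups did not overlap, and it fell with -0.60 (adjusted p = 1.6e-06, SE 0.08). Both calls were kept with the correction, at -0.82 (adjusted p = 9.4e-10) for UNC5B and -0.35 (adjusted p = 9.2e-04) for UNC5A. The summed UNC5 level was 60.9 to 65.5 CPM in the shLIS1 libraries and 106 to 121 CPM in the control libraries.

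NTN4 (ENSG00000074527, chr12:95657807-95791189, minus strand), a netrin of basement membranes, had 28.3, 24.04 and 26.7 CPM in the shLIS1 libraries, against 34.3, 38.3 and 40.2 CPM in the control libraries. It fell with -0.51 (adjusted p = 3.1e-05, SE 0.08), and its corrected value was -0.57 (adjusted p = 2.4e-06). NTN1 (ENSG00000065320, chr17:9021510-9244000, plus strand), the classical netrin, had 5.76, 6.56 and 6.07 CPM in the shLIS1 libraries, against 8.403, 8.996 and 8.64 CPM in the control libraries. Its log2 fold change was -0.51 (adjusted p = 0.0018, SE 0.12), a call lost in the corrected fit (-0.30, adjusted p = 0.058). NEO1 (ENSG00000067141, chr15:73051710-73305205, plus strand), which encodes neogenin, the netrin receptor related to DCC, had 12.4, 11.03 and 10.5 CPM in the shLIS1 libraries, against 12.1, 9.89 and 12.2 CPM in the control libraries. The groups overlapped, and the log2 fold change was -0.01 (adjusted p = 0.97, SE 0.11), with a corrected value of -0.09 (adjusted p = 0.52). DCC itself had 0 to 4 counts in any library. The ratio of NTN4 to UNC5B per length was 1.65, 1.44 and 1.58 in the shLIS1 libraries and 0.855, 1.26 and 1.28 in the control libraries, without overlap. For NTN4 over UNC5A it was 0.962, 0.802 and 1.04 in the shLIS1 libraries and 0.825, 0.866 and 0.935 in the control libraries, with overlap.

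UNC5B is also made by blood vessels, and markers of other cell types were therefore set beside these values. The endothelial list summed to 7.15 to 8.54 CPM in shLIS1 and 12.8 to 17.1 CPM in control libraries. Most of it was CDH5 (6.67 CPM in shLIS1 and 12.6 CPM in control cells), while PECAM1 averaged 0.166 CPM in shLIS1 and 0.120 CPM in control cells. Of the 2 tested endothelial genes, CDH5 fell (-0.93, adjusted p = 4.6e-06, corrected value -0.85), where 24.9% of all genes fell. VWF was not called (-0.65, adjusted p = 0.11), PECAM1 was too scarce for the test and KDR is absent from the deposited counts. The fibroblast list summed to 13.3 to 15.8 CPM in shLIS1 and 17.1 to 21.9 CPM in control libraries. COL3A1 averaged 0.0598 CPM in shLIS1 and 0.120 CPM in control cells. DCN had 0 counts in every shLIS1 library, against 1, 0 and 0 counts in the control libraries. Of the 4 tested fibroblast genes 3 fell, against 24.9% of all genes, and LUM was not called (0.33, adjusted p = 0.18). The call of PDGFRB was lost with the correction (-0.88, adjusted p = 0.069). Of the neuron list 3 of 6 genes were tested and none was called by edgeR, nor did any have an unadjusted p below 0.05, and no Schwann cell or leukocyte marker had enough counts for a test. All 6 libraries are labelled as the 1 line SCC25, and the labels name no endothelial cells or fibroblasts. The part of these markers in the guidance values was not tested. In bulk RNA, fewer cells making a transcript and less of it per cell cannot be told apart.

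In the Slit system 1 of 3 tested genes rose, where 23.5% of all genes rose. ROBO1 (ENSG00000169855, chr3:78597239-79767998, minus strand), a receptor for SLIT2, had 13.1, 15.4 and 13.6 CPM in the shLIS1 libraries, against 10.5, 9.74 and 10.6 CPM in the control libraries. It rose with 0.45 (adjusted p = 0.0014, SE 0.11) and kept its call with the correction (0.30, adjusted p = 0.022). SLIT2 (ENSG00000145147, chr4:20251905-20620561, plus strand), the only Slit that reached the filter, had 5.57, 6.05 and 5.24 CPM in the shLIS1 libraries, against 7.18, 4.97 and 5.94 CPM in the control libraries. The groups overlapped, and the log2 fold change was -0.09 (adjusted p = 0.64, SE 0.15), with a corrected value of -0.31 (adjusted p = 0.097). The ratio of SLIT2 to ROBO1 per length was 0.4995, 0.4601 and 0.454 in the shLIS1 libraries and 0.802, 0.599 and 0.661 in the control libraries, lower in every shLIS1 library. ROBO3, a divergent member of the family, had 1.63 ± 0.352 CPM in shLIS1 and 1.66 ± 0.3803 CPM in control cells (SD, n = 3 each) and was not called (-0.0053, corrected value 0.22).

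Downstream of the receptors, 79 adaptors, GTPases, their regulators, kinases and coreceptors were examined, of which 73 were tested. Of these, 24 rose (32.9%, against 23.5% of all genes) and 18 fell (24.7%, against 24.9% of all genes), with a median log2 fold change of 0.09 against -0.01 over all genes. The rises with the smallest p were ROCK2 (1.12) and ROCK1 (0.96), kinases that act in growth cone collapse, the Src family kinase YES1 (0.60), and ADAM10 (0.53), a protease that cuts ephrins. ROCK2 had 88.3 ± 0.606 CPM in shLIS1 and 40.5 ± 2.37 CPM in control cells (SD, n = 3 each). ROCK1 had 56.6 ± 2.502 CPM in shLIS1 and 29.2 ± 1.397 CPM in control cells (SD, n = 3 each), and it has a partial copy elsewhere in the genome, so its counts are uncertain. The falls with the smallest p were VASP (-0.53), which extends actin filaments, the GTPases HRAS (-0.44) and RRAS (-0.65), the second a target of plexins, and the cofilin kinase LIMK1 (-0.42). With the correction 19 rose and 21 fell, against 17.5% and 24.3% of all genes. ROCK2 (0.71, adjusted p = 9.0e-10), ROCK1 (0.55, adjusted p = 3.9e-07), YES1 (0.23, adjusted p = 2.7e-04), VASP (-0.26, adjusted p = 2.5e-04), RRAS (-0.32, adjusted p = 0.0023) and LIMK1 (-0.20, adjusted p = 0.0030) kept their calls. ADAM10 (0.04, adjusted p = 0.57) and HRAS (-0.07, adjusted p = 0.34) lost theirs.

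The calls that did not depend on a single library or on the correction can be counted. Of the 25 called guidance genes, 21 were called in each of the 6 fits that left out 1 library, and 14 of these 21 also with the correction. The same shares over all genes were not computed, so these counts are no property of the guidance genes. The 14 were SEMA3A, SEMA3D, SEMA6A, EFNB2, EPHA2 and ROBO1 among the rises and SEMA3F, SEMA4C, SEMA6B, NRP2, EPHB2, UNC5A, UNC5B and NTN4 among the falls. At least 2-fold changes that passed were seen in 3 of the 48 genes, SEMA6B, UNC5B and SEMA3D, or 6.25%, against 4.59% of all genes.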

How the data were processed

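The deposited table holds raw counts per gene for 6 SCC25 libraries, and the authors gave no normalized values. Libraries were made from polyA-selected RNA with dUTP strand marking, per the labels' protocols, and the genome build was hg 38, per the submitters' processing notes. No source used here names the aligner, counting tool, annotation release or strand setting.

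Genes passing filterByExpr (minimum count 10, minimum total 15) were fitted with edgeR 4.0.16 (TMM, robust quasi-likelihood, group alone), with Benjamini-Hochberg adjustment and a threshold of 0.05. Each standard error is the absolute fold change (log2) divided by the root of its F statistic. Transcript lengths and GC content came from the longest GENCODE 29 transcript of each gene, protein-coding where there is one. The corrected fit adds to each library an offset, its log2 deviation from the mean library smoothed over length and GC content (mgcv 1.9.3, basis size 6), which also removes any real change that follows them. Alternatives were RLE and upper quartile scaling, other filters, DESeq2 1.42.0, limma-voom 3.58.1, no robust estimation, a replicate block and leaving out each library.

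Every library's value is given for genes past the threshold with a log2 fold change of at least 0.4 in size and 1 CPM in a group, and for the most abundant gene of each family per length. Effectors named are the 4 with the smallest p in each direction. Members and lists were chosen with earlier results of these data known. Depth was 15661916 to 22790599 counts per library, so 3 counts correspond to 0.130 to 0.192 CPM, which covers counting error only.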

Additional observations from a re-analysis of the deposited data

How the results depend on the processing

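Guidance genes called higher numbered 8 to 11, and those called lower 14 to 20, in all fits without the length and GC offset, against 8 and 17 as reported. Over all genes the same fits called 3011 to 3646 higher and 3034 to 4214 lower, against 3518 and 3731 as reported. The count of guidance genes called lower dropped to 8 with that offset and to 8 with the offset and the replicate block. Over all genes 3519 and 3254 were called lower in those 2 fits. With the offset 7 uncalled fold changes turned positive (SEMA3B, SEMA4B, SEMA6C, EPHA1, ROBO3, PLXNA1 and PLXNB2) and 2 negative (EFNA5 and EPHA3), and 0 of the called ones turned. Values of the genes given by library that turned positive in an alternative were those of SEMA4B (0.0826 with the offset, 0.0825 with offset and block), PLXNB2 (0.0869 and 0.0864), SLIT2 (-0.21 to 0.0316 when single libraries were left out) and NEO1 (0.0044 with RLE scaling, 0.0047 without a filter, 0.0039 with DESeq2, -0.094 to 0.0549 when single libraries were left out). The cause was not tested. PAFAH1B1 was called lower in every fit, at -0.82 to -0.48. Deviations of same-numbered libraries had correlations of -0.038, 0.032 and -0.037, and those of other pairs -0.032 to 0.059. These show no pairing by number, but with 3 libraries a group they cannot exclude one. With the replicate block 9 guidance genes were called higher and 17 lower, and over all genes 3484 and 3682. The replicate block, uncorrected, added PLXNA3 (adjusted p = 0.048) to the rises and SEMA4B (-0.14, adjusted p = 0.044) to the falls. It lost SEMA4F (adjusted p = 0.053). Upper quartile scaling added SEMA4B (-0.18, adjusted p = 0.033) and PLXNB2 (-0.16, adjusted p = 0.034) to the falls. PLXNB3 passed with the offset but not with the offset and the block. The libraries are 3 a group, of unstated origin, and the 19 guidance genes at 16 counts or fewer were not tested in the reported fit.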

Other observations

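Of the 19 guidance genes too scarce for the test, UNC5C, a netrin receptor related to UNC5A and UNC5B, differed most in its counts, a choice made after the values were seen. It had 8, 16 and 12 counts in the shLIS1 libraries, against 0, 4 and 2 counts in the control libraries, the opposite direction to UNC5A and UNC5B. Without a filter on low counts its log2 fold change was 2.41 (adjusted p = 0.0026, edgeR). ROBO4, an endothelial Robo receptor, had 3, 2 and 7 counts in the shLIS1 libraries, against 2, 0 and 0 counts in the control libraries. ROBO2, a Slit receptor of neurons, had 1, 0 and 1 counts in shLIS1, against 2, 4 and 3 counts in control libraries. In the same unfiltered edgeR fit neither ROBO4 (2.20, adjusted p = 0.19) nor ROBO2 (-2.11, adjusted p = 0.25) passed.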
